A study of Caenorhabditis elegans with 6 samples.

Results

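The 10 genes described here carry the insulin/IGF-1 signal of Caenorhabditis elegans from the receptor to its transcription factor. They are daf-2, ist-1, age-1, aap-1, pdk-1, akt-1, akt-2, sgk-1, daf-18 and daf-16, picked by name from the 46748 genes of the deposited table. All 10 passed the filter on low counts.

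Insulin-like peptides bind the receptor DAF-2, which activates a phosphoinositide 3-kinase whose lipid product acts through the kinases PDK-1, AKT-1, AKT-2 and SGK-1. AKT phosphorylates the FOXO factor DAF-16 and holds it in the cytoplasm, and the lipid phosphatase DAF-18 opposes the kinase AGE-1. Worms with weak DAF-2 signalling are known for long life, stress resistance and, when the loss is severe, arrest as dauer larvae. Most of this control acts on proteins and lipids, which a transcript count does not measure.

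Polyadenylated RNA was sequenced from whole worms in 6 libraries. There were 3 groups of 2 libraries, fed bacteria for RNAi toward daf-2, for RNAi toward cav-1 (a caveolin gene), or bacteria with the empty vector. Every group was of strain CF512, was put on its bacteria as eggs at 25 °C for 48 h, a heat treatment that makes this strain sterile, and was collected on day 1 of adulthood. Each of 2 biological repeats held 1 library of every group. RNAi lowers a transcript and is not a deletion, and each library pooled many whole worms, so fewer cells of a type and less RNA per cell cannot be told apart.

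Total counts per library ran from 25474328 to 32886440. At these depths the members had between 67 and 28889 counts, and counting error alone gave a coefficient of variation of 0.588% to 12.2%. The other RNAi target, cav-1, stood at 42.7 and 21.2 CPM (counts scaled to a common library total) in daf-2 RNAi worms, 6.13 and 1.84 CPM in cav-1 RNAi worms and 178 and 184 CPM in empty vector worms. Of 9 early embryo markers, 6 passed the filter, and their list summed to between 2.63 and 13.8 CPM in daf-2 RNAi worms, 21.2 and 27.4 CPM in cav-1 RNAi worms and 18.7 and 37.7 CPM in empty vector worms. Of 7 sperm markers, 1 passed (spe-15), msp-3 and msp-10 had no counts at all, and the list summed to between 7.73 and 16.1 CPM in daf-2 RNAi worms, 13.2 and 22.6 CPM in cav-1 RNAi worms and 9.46 and 23.0 CPM in empty vector worms. All 8 oocyte and germline markers passed. Their sums in repeat 1 were 1816 CPM in daf-2 RNAi worms, 2962 CPM in cav-1 RNAi worms and 2656 CPM in empty vector worms. In repeat 2 they were 6730, 8485 and 9416 CPM in the same order, so daf-2 RNAi worms were lowest within each repeat. All 8 neuronal markers passed, with sums of 330 and 382 CPM in daf-2 RNAi worms, 230 and 298 CPM in cav-1 RNAi worms and 255 and 286 CPM in empty vector worms. All 8 muscle markers passed, with sums of 4962 and 4331 CPM in daf-2 RNAi worms, 3050 and 2633 CPM in cav-1 RNAi worms and 3732 and 2867 CPM in empty vector worms. All 8 intestinal markers passed too, with sums of 1157 and 1869 CPM in daf-2 RNAi worms, 797 and 2108 CPM in cav-1 RNAi worms and 1129 and 2346 CPM in empty vector worms. What part these shifts have in the values below was not tested.

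Levels are given as TMM-scaled CPM, repeat 1 before repeat 2 within each group. The receptor gene daf-2 (WBGene00000898, build WBcel235, chromosome III, 2994514 to 3040846, minus strand, 19 exons in its longest transcript of 7325 nt) had 26.4 and 30.6 CPM in daf-2 RNAi worms, 57.9 and 214 CPM in cav-1 RNAi worms and 42.6 and 188 CPM in empty vector worms. These were 771 and 1012 counts in daf-2 RNAi worms, 1954 and 5933 in cav-1 RNAi worms and 1090 and 5102 in empty vector worms. Both daf-2 RNAi libraries lay below all 4 others, whereas the 2 repeats of each of the other groups lay far apart. ist-1, an adaptor related to the insulin receptor substrates (WBGene00002163, X, 7126648 to 7139666, plus strand, 3681 nt), had 5.37 and 15.03 CPM in daf-2 RNAi worms, 2.61 and 8.33 CPM in cav-1 RNAi worms and 2.62 and 7.07 CPM in empty vector worms. It was highest in daf-2 RNAi worms within each repeat, though the groups overlapped across repeats, and its 67 to 497 counts were few beside those of most other members.

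age-1, the catalytic subunit of the phosphoinositide 3-kinase (WBGene00000090, II, 11519328 to 11527054, minus strand, 3929 nt), had 21.3 and 84.9 CPM in daf-2 RNAi worms, 38.5 and 104.1 CPM in cav-1 RNAi worms and 30.5 and 111 CPM in empty vector worms. It was lowest in daf-2 RNAi worms within each repeat, and its repeats differed more than its groups. aap-1, the adaptor subunit of the same kinase (WBGene00000001, I, 5107843 to 5110183, plus strand, 1806 nt), had 50.0 and 64.8 CPM in daf-2 RNAi worms, 135 and 87.8 CPM in cav-1 RNAi worms and 88.1 and 85.5 CPM in empty vector worms. Both daf-2 RNAi libraries lay below the other 4, and repeat 2 was not uniformly higher. Exons of age-1 and aap-1 overlap opposite-strand genes by 192 nt (B0334.10, 0 to 9 counts) and 136 nt (Y110A7A.21, 102 to 429 counts), and the strand setting of the counting is not given in the sources used here.

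Among the kinases below it, pdk-1, which phosphorylates AKT (WBGene00003965, X, 1321344 to 1327986, plus strand, 2422 nt), had 23.5 and 47.3 CPM in daf-2 RNAi worms, 14.9 and 47.2 CPM in cav-1 RNAi worms and 13.2 and 45.8 CPM in empty vector worms. The repeat 2 libraries were nearly equal, and in repeat 1 daf-2 RNAi worms stood above the other groups. akt-1 (WBGene00000102, V, 10248905 to 10252845, plus strand, 2086 nt) had 109 and 225 CPM in daf-2 RNAi worms, 209 and 198 CPM in cav-1 RNAi worms and 129 and 192 CPM in empty vector worms, so the daf-2 RNAi libraries were both its lowest and its highest. akt-2 (WBGene00000103, X, 14147700 to 14152070, plus strand, 2381 nt) had 27.9 and 43.5 CPM in daf-2 RNAi worms, 21.6 and 25.8 CPM in cav-1 RNAi worms and 17.5 and 30.1 CPM in empty vector worms. It was highest in daf-2 RNAi worms within each repeat. sgk-1, a kinase related to AKT (WBGene00004789, X, 16254842 to 16262122, minus strand, 1635 nt), had 4.58 and 11.7 CPM in daf-2 RNAi worms, 9.21 and 15.9 CPM in cav-1 RNAi worms and 10.5 and 12.2 CPM in empty vector worms. Its lowest library, daf-2 RNAi in repeat 1, held 134 counts, and the groups overlapped.

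daf-18, the lipid phosphatase that reverses the reaction of AGE-1 (WBGene00000913, IV, 420011 to 425177, minus strand, 3333 nt), had 170 and 686 CPM in daf-2 RNAi worms, 529 and 1042 CPM in cav-1 RNAi worms and 275 and 1017 CPM in empty vector worms. daf-2 RNAi worms were lowest within each repeat, and cav-1 RNAi worms stood out in repeat 1. daf-16, the FOXO factor at the end of the pathway (WBGene00000912, I, 10750498 to 10776703, plus strand, 2765 nt), had 96.6 and 159 CPM in daf-2 RNAi worms, 93.8 and 179 CPM in cav-1 RNAi worms and 71.7 and 137 CPM in empty vector worms. Empty vector worms were lowest within each repeat, and the groups overlapped. Exons of pdk-1, akt-1 and daf-16 overlap opposite-strand genes by 15, 8 and 84 nt.

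**Figure D1:**
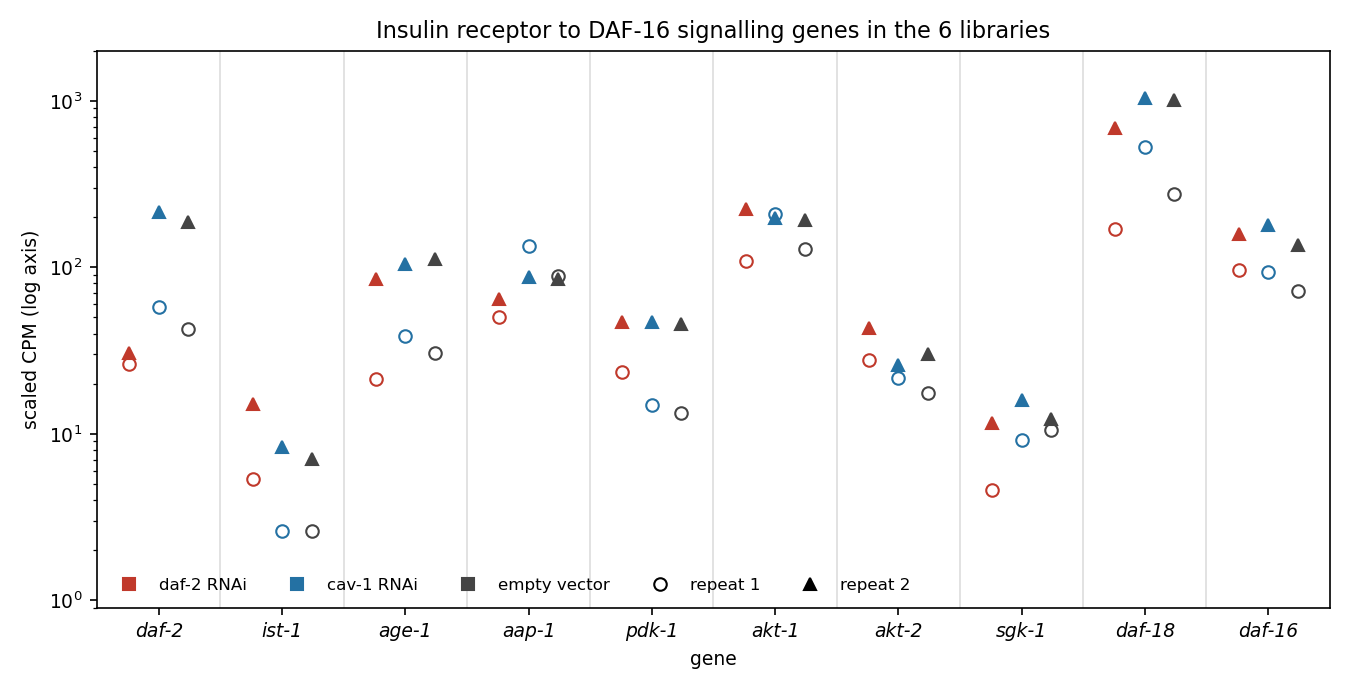
Scaled CPM of the 10 signalling genes (log axis) in each library, with daf-2 RNAi in red, cav-1 RNAi in blue and empty vector in grey, open circles for repeat 1 and filled triangles for repeat 2. daf-2 is the gene whose 2 RNAi libraries (26.4 and 30.6 CPM) lie together while its other groups spread from 42.6 to 214 CPM, and triangles lie above circles of the same colour for most genes.

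Per kb of longest transcript, daf-18 had the highest mean level over the 6 libraries, 186 CPM per kb, followed by akt-1 at 84.8, aap-1 at 47.2, daf-16 at 44.4, age-1 at 16.6, pdk-1 at 13.2, daf-2 at 12.7, akt-2 at 11.6, sgk-1 at 6.54 and ist-1 at 1.86 CPM per kb. Among 14270 tested genes with a transcript length, daf-18 stood at percentile 94.4 and ist-1 at percentile 26.3. Not every step in this order held from library to library. aap-1 exceeded daf-16, pdk-1 exceeded daf-2, and daf-2 exceeded akt-2 in 2 of 6 libraries each, so these neighbours did not differ beyond their spread. For pdk-1 over daf-2 these were the 2 daf-2 RNAi libraries, in which daf-2 is the RNAi target. By group, daf-2 averaged 3.89 CPM per kb in daf-2 RNAi worms, 18.6 in cav-1 RNAi worms and 15.7 in empty vector worms, and pdk-1 averaged 14.6 in daf-2 RNAi worms, 12.8 in cav-1 RNAi worms and 12.2 in empty vector worms. akt-1 exceeded aap-1, daf-16 exceeded age-1, akt-2 exceeded sgk-1 and sgk-1 exceeded ist-1 in all 6 libraries, and daf-18 exceeded akt-1 and age-1 exceeded pdk-1 in 5 of 6. With the median transcript of each gene in place of the longest, daf-16 (75.5 CPM per kb) passed aap-1 and daf-2 (17.3 CPM per kb) passed pdk-1, because their median transcripts are shorter.

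In daf-2 RNAi worms the transcript of the RNAi target itself was lower, and no other member passed the test against empty vector. daf-2 averaged 28.5 ± 3.01 CPM in daf-2 RNAi worms and 115 ± 103 CPM in empty vector worms (SD, n = 2 each), which is -1.63 on the log2 scale (SE 0.39, adjusted p = 0.0300, limma-trend with the repeat as a block and Benjamini-Hochberg adjustment over 14378 genes). It was thus 1 of 10 members called lower, where 3.13% of all tested genes were. The log2 ratio was -0.67 in repeat 1 and -2.58 in repeat 2, each from 1 library per arm. The call was lost without the daf-2 RNAi library of repeat 2 (-0.53, adjusted p = 0.653), without the empty vector library of repeat 2 (-1.09, adjusted p = 0.109) and without the cav-1 RNAi library of repeat 1 (-1.59, adjusted p = 0.0683). It was also lost with a pseudocount of 4, no filter, a minimum mean of 5 CPM or the length trend removed (adjusted p between 0.0517 and 0.0928). With no replicate block, 0 members were called (0 of 10 at an unadjusted p under 0.05, with the lowest adjusted p at 0.991), and so were 0% of all genes (777 at an unadjusted p under 0.05).

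The other members moved in both directions, none of them at an adjusted p under 0.05. At an unadjusted p under 0.05 limma-trend had 5 of 10 members (50%), against 24.2% of all tested genes. They were daf-2, ist-1, akt-2, aap-1 and daf-18. ist-1 differed by 0.90 on the log2 scale (SE 0.26, adjusted p = 0.0619), with 0.82 in repeat 1 and 0.99 in repeat 2, and was called under 3 of 16 alternatives. akt-2 had 0.58 (adjusted p = 0.199), pdk-1 0.41 (adjusted p = 0.344) and daf-16 0.32 (adjusted p = 0.361). On the lower side, daf-18 had -0.63 (adjusted p = 0.190), aap-1 -0.60 (adjusted p = 0.200), sgk-1 -0.56 (adjusted p = 0.270) and age-1 -0.44 (adjusted p = 0.272). akt-1 had -0.0014 (adjusted p = 0.998, 95% interval -0.60 to 0.60), and its sign turned under several alternatives. In both repeats 4 members were higher (ist-1, pdk-1, akt-2 and daf-16, where 32.5% of tested genes were) and 5 were lower (daf-2, age-1, aap-1, sgk-1 and daf-18, where 42.8% were). The 2 members whose groups did not overlap, daf-2 and aap-1, were both lower, as were 12% of tested genes. The members' median was -0.22, against -0.05 for all tested genes. cav-1, which is not a member, was also called lower in daf-2 RNAi worms (-2.55, SE 0.33, limma-trend adjusted p = 0.0019). Its log2 ratio was -2.03 in repeat 1 and -3.06 in repeat 2, and with no replicate block it was not called (adjusted p = 0.521).

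**Figure D2:**
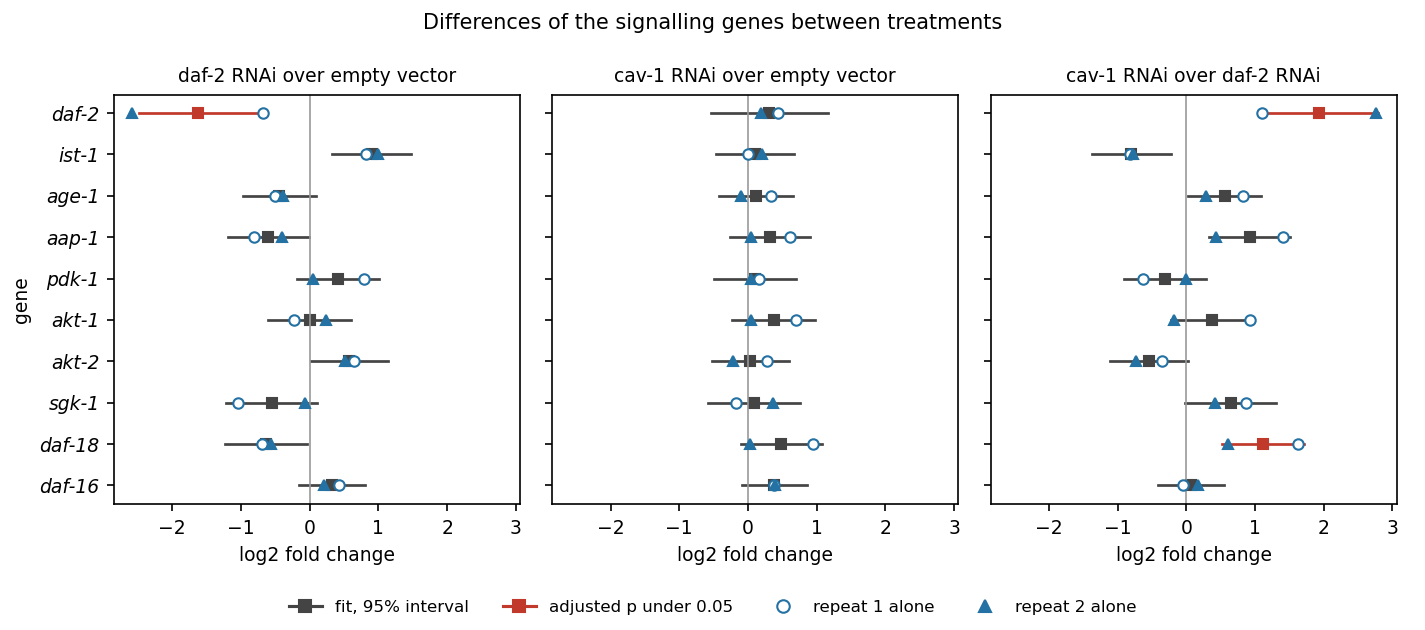
Log2 fold change of the 10 genes in 3 comparisons (one panel each), as the fitted value with its 95% interval (squares and lines, red where the adjusted p was under 0.05) and as the ratio within each repeat (open circles and filled triangles). daf-2 is called in the left panel at -1.63, no gene is called in the middle panel, and daf-2 at 1.94 and daf-18 at 1.12 are called in the right panel.

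Under cav-1 RNAi no member passed the test against empty vector. limma-trend called 0 of 10 members (0 at an unadjusted p under 0.05, and 0 with voom weights), where 0.00696% of tested genes were called, cav-1 itself alone (-5.34, adjusted p = 9.39e-05, and 0.0606 without the cav-1 RNAi library of repeat 1). All 10 fitted differences were above 0, where 6851 of 14378 tested genes were. They lay between 0.03 for akt-2 and 0.49 for daf-18 on the log2 scale, with a median of 0.21 against -0.01 for all tested genes. In both repeats 6 members were higher (daf-2, aap-1, pdk-1, akt-1, daf-18 and daf-16), where 20.8% of tested genes were. daf-16 was the most even of these, at 0.38 in repeat 1 and 0.39 in repeat 2 (fitted 0.39, SE 0.22, adjusted p = 0.977). daf-18 had 0.94 in repeat 1 and 0.03 in repeat 2, and akt-1 had 0.69 and 0.05. akt-1 was the 1 member whose groups did not overlap, and 5.6% of tested genes were higher in that way. For daf-2 the 95% interval of the log2 difference reached from -0.54 to 1.16. Without the cav-1 RNAi library of repeat 1 the signs of age-1 (-0.10), aap-1 (-0.04), akt-1 (-0.04) and akt-2 (-0.16) turned. After removal of the trend on transcript length, ist-1 stood at 0.0014, pdk-1 at 0.0070 and age-1 at 0.017. On that scale daf-2 was at 0.26, aap-1 at 0.28 and akt-1 at 0.30. With no replicate block 0 members and 0% of tested genes were called (0 of 10 and 36 of 14378 at an unadjusted p under 0.05).

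Set against each other, cav-1 RNAi worms had more daf-2 and more daf-18 transcript than daf-2 RNAi worms. daf-2 averaged 136 ± 110 CPM in cav-1 RNAi worms and 28.5 ± 3.01 CPM in daf-2 RNAi worms (SD, n = 2 each; log2 fold change 1.94, SE 0.39, limma-trend adjusted p = 0.0123). daf-18 averaged 785 ± 362 CPM in cav-1 RNAi worms and 428 ± 364 CPM in daf-2 RNAi worms (SD, n = 2 each, log2 fold change 1.12, SE 0.27, limma-trend adjusted p = 0.0280). Its log2 ratios were 1.63 in repeat 1 and 0.60 in repeat 2. The groups of daf-18 overlapped, with 529 CPM in cav-1 RNAi worms of repeat 1 and 686 CPM in daf-2 RNAi worms of repeat 2. daf-2 and daf-18 were thus 2 of 10 members called higher, where 3.74% of tested genes were. The scaling moved that background: 538 genes were called higher and 988 lower, whereas median-of-ratios size factors gave 1936 higher and 1206 lower. The call of daf-18 was lost without the daf-2 RNAi library of repeat 1 (0.83, adjusted p = 0.205) or the cav-1 RNAi library of repeat 1 (0.62, adjusted p = 0.197), with no filter (adjusted p = 0.0606) and after removal of the length trend (0.87, adjusted p = 0.0583). That of daf-2 was lost without the daf-2 RNAi library of repeat 2 (0.85, adjusted p = 0.243) or the cav-1 RNAi library of repeat 1 (2.28, adjusted p = 0.132). With no replicate block 0 members and 0% of tested genes were called (0 of 10 and 827 of 14378 at an unadjusted p under 0.05). The oocyte and germline sum was 2962 and 8485 CPM in cav-1 RNAi worms and 1816 and 6730 CPM in daf-2 RNAi worms, and its part in the difference of daf-18 was not tested.

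aap-1 lay next to the threshold in that comparison (0.92, SE 0.27, adjusted p = 0.0502), with 1.41 in repeat 1 and 0.43 in repeat 2, and was called under 9 of 16 alternatives (adjusted p from 0.00158 to 0.903). ist-1 had -0.80 (SE 0.26, adjusted p = 0.0663), at -0.82 and -0.78 in the 2 repeats, and was called lower under 3 of 16 alternatives. In the same comparison akt-2 had -0.54 (adjusted p = 0.149). sgk-1 had 0.64 (adjusted p = 0.148), age-1 0.56 (adjusted p = 0.124), akt-1 0.37 (adjusted p = 0.325), daf-16 0.07 (adjusted p = 0.838) and pdk-1 -0.32 (adjusted p = 0.401). Groups did not overlap for daf-2 and aap-1, which were higher (16.6% of tested genes were), nor for akt-2, which was lower (21.2% were). In both repeats 5 members were higher (39.2% of tested genes) and 3 were lower (39.7%). The members' median was 0.47, against -0.01 for all tested genes. Unadjusted p was under 0.05 in limma-trend for 5 of 10 members (50%), against 36.3% of all tested genes. This comparison uses the same daf-2 RNAi libraries as the one against empty vector, so the 2 are not independent. Both of its groups had less cav-1 transcript than empty vector worms.

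Ratios of counts within a library do not depend on how libraries are scaled, and 5 of them were computed as a description, picked after the values were seen. 2 of the 5 have the RNAi target daf-2 below the line and are left aside. How many other gene pairs order the groups as the next 2 ratios do was not counted. The order can therefore not be called particular to these genes. akt-1 over akt-2 was 3.92 and 5.17 in daf-2 RNAi worms, 9.68 and 7.69 in cav-1 RNAi worms and 7.34 and 6.37 in empty vector worms. The ratio was lowest in both daf-2 RNAi libraries and highest in both cav-1 RNAi libraries. daf-18 over age-1, the phosphatase over the kinase it opposes, was 7.997 and 8.075 in daf-2 RNAi worms, 13.7 and 10.0 in cav-1 RNAi worms and 9.03 and 9.13 in empty vector worms. The repeats lay close together in daf-2 RNAi and empty vector worms, although each of the 2 genes differed severalfold between repeats. aap-1 over age-1, the 2 subunits of the kinase, was 2.35 and 0.763 in daf-2 RNAi worms, 3.50 and 0.843 in cav-1 RNAi worms and 2.89 and 0.768 in empty vector worms. This ratio differed more between repeats than between groups. Within each repeat it was lowest in daf-2 RNAi worms and highest in cav-1 RNAi worms, though in repeat 2 daf-2 RNAi and empty vector were nearly equal. The longest transcripts of daf-18 (3333 nt) and age-1 (3929 nt) are closer in length than those of aap-1 (1806 nt) and age-1. Repeat differences moved with transcript length (below), and the part of length in these ratios was not tested.

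**Figure D3:**
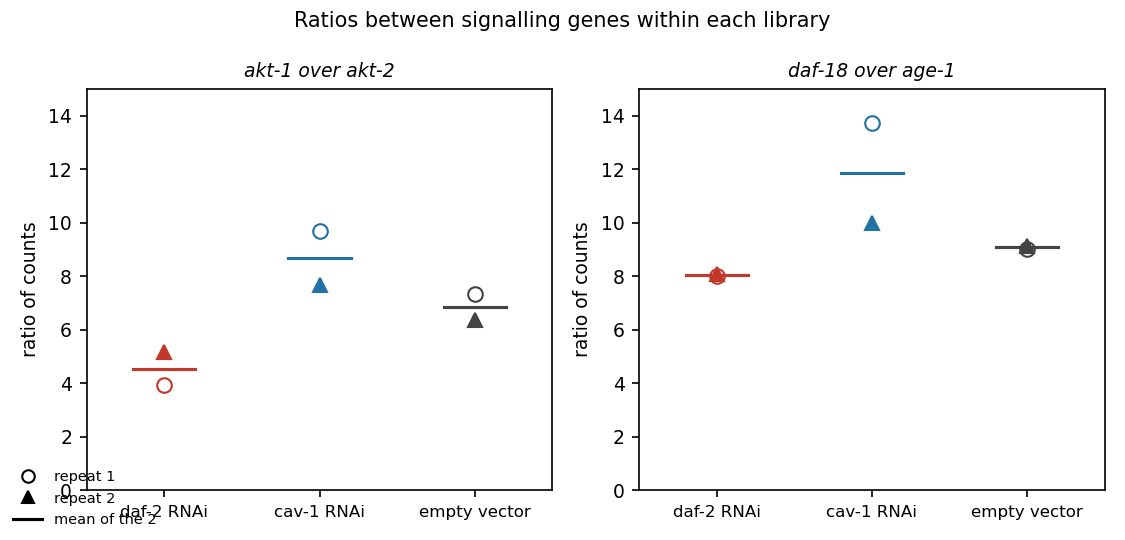
Ratio of counts of akt-1 to akt-2 (left) and of daf-18 to age-1 (right) in each library, by group, with open circles for repeat 1, filled triangles for repeat 2 and a bar at the mean of the 2. For both ratios the daf-2 RNAi libraries are lowest and the cav-1 RNAi libraries highest, and the daf-18 to age-1 ratio is 7.997 and 8.075 in daf-2 RNAi worms and 9.03 and 9.13 in empty vector worms. The ratio of aap-1 to age-1 is not drawn, and how many other gene pairs are ordered like this was not counted.

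Most members also differed between the repeats. At matched treatment 8 of 10 members were called higher in repeat 2 than in repeat 1 (limma-trend, adjusted p under 0.05), where 25.2% of tested genes were. age-1 averaged 100 CPM in repeat 2 and 30.1 CPM in repeat 1 (n = 3 each; log2 fold change 1.73, SE 0.20, adjusted p = 8.44e-05). daf-18 averaged 915 CPM in repeat 2 and 325 CPM in repeat 1 (1.62, SE 0.22, adjusted p = 2e-04). pdk-1 had 1.43, daf-2 1.40, ist-1 1.29, daf-16 0.85, sgk-1 0.70 and akt-2 0.54. akt-1 had 0.51 (adjusted p = 0.0689), and aap-1 had -0.10 (adjusted p = 0.720). For 6 members, namely ist-1, age-1, pdk-1, sgk-1, daf-18 and daf-16, every library of repeat 2 lay above every library of repeat 1, as for 23.4% of tested genes.

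Transcript length moved with this difference across all tested genes. The median of repeat 2 over repeat 1 was 1.66 for the 342 genes with transcripts over 5000 nt, 1.05 for those of 3001 to 5000 nt, 0.49 for 2001 to 3000 nt, -0.16 for 1001 to 2000 nt and -0.52 for those up to 1000 nt, on the log2 scale. With the trend on length removed in each library, 4 members were still called higher in repeat 2 (age-1, pdk-1, sgk-1 and daf-18), where 23.2% of tested genes were, and daf-2 stood at -0.27 (adjusted p = 0.510). On that scale daf-2 had 51.7 and 17.7 CPM in daf-2 RNAi worms, 100 and 109 CPM in cav-1 RNAi worms and 71.9 and 106 CPM in empty vector worms. The fitted change by daf-2 RNAi was then -1.50 (adjusted p = 0.0517) and that of ist-1 1.05 (adjusted p = 0.0337), so daf-2 lost its call and ist-1 gained one. The oocyte and germline sum also moved with the repeat, and its part in the difference between repeats was not tested.

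**Figure D4:**
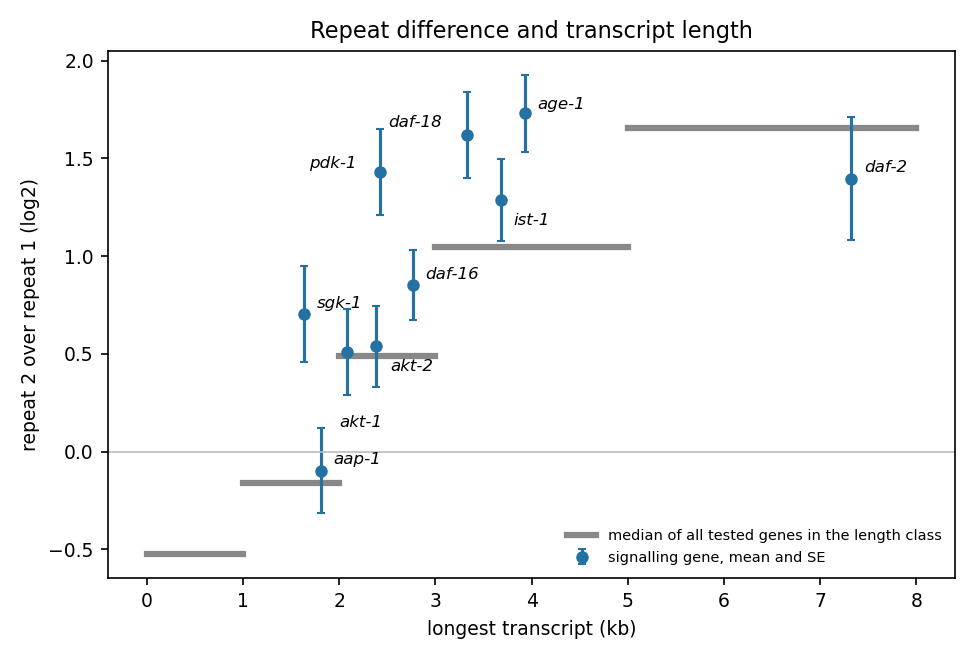
Log2 ratio of repeat 2 over repeat 1 at matched treatment against the longest transcript in kb, for the 10 signalling genes (points, with SE) and as the median of all tested genes per length class (grey bars, the last class open-ended and drawn to the edge). The grey medians climb from -0.52 to 1.66 with length, aap-1 sits near 0, daf-2 (1.40) sits below the bar of its class, and the other 8 genes sit above theirs, akt-1 and akt-2 only slightly.

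The 3 genes whose profile over the 6 libraries was nearest to that of daf-2 were Y46H3C.5, Y9D1A.1 and F08A8.2, with root-mean-square log2 differences of 0.369, 0.393 and 0.490 among 9098 genes. Y46H3C.5 had 0.649 and 1.76 CPM in daf-2 RNAi worms, 4.06 and 8.98 CPM in cav-1 RNAi worms and 3.28 and 11.7 CPM in empty vector worms. It was picked for its likeness to daf-2 over these same libraries, so the shared pattern is no separate result. Like daf-2, it was low in both daf-2 RNAi libraries and higher in repeat 2 of the other groups. Within daf-2 RNAi worms it was also higher in repeat 2, where daf-2 differed little (26.4 and 30.6 CPM). The nearest member was daf-18 (0.726, position 132), and the farthest was ist-1 (1.32, position 5101).

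Of 30 listed regulators and partners of the pathway, 25 passed the filter. Under daf-2 RNAi against empty vector limma-trend called 0 of 25, where 7.44% of all tested genes were called. At an unadjusted p under 0.05 there was 1 of 25 (4%), against 24.2% of all tested genes, and the median log2 fold change was -0.18. Under cav-1 RNAi against empty vector it also called 0 of 25, where 0.00696% of tested genes were called. At an unadjusted p under 0.05 there was again 1 of 25 (4%), against 3.99% of tested genes, and the median was 0.09. Between cav-1 RNAi and daf-2 RNAi 7 of 25 (28%) had an unadjusted p under 0.05 in limma-trend, against 36.3% of all tested genes. In that comparison limma-trend called 1 higher, where 3.74% of tested genes were, and 1 lower, where 6.87% were, with a median of 0.27. The lower one was pqm-1, a zinc finger factor whose nuclear localisation is known to oppose that of DAF-16, at 37.3 and 28.7 CPM in cav-1 RNAi worms and 74.5 and 77.5 CPM in daf-2 RNAi worms (-1.19, SE 0.24, adjusted p = 0.0123), against 43.3 and 39.6 CPM in empty vector worms. Both daf-2 RNAi libraries lay above the other 4, which was not particular to pqm-1 among the regulators. How many of all tested genes lay in this way was not counted. pqm-1 was 0.86 higher in daf-2 RNAi than in empty vector worms on the log2 scale (limma-trend adjusted p = 0.0538). That difference missed the threshold here and passed it under 8 of 16 alternatives (adjusted p from 0.00561 to 0.991 over all 16). The authors' deposited table gives it an adjusted p of 0.0279. The call against cav-1 RNAi was lost without the daf-2 RNAi library of repeat 2 (adjusted p = 0.0737) or the cav-1 RNAi library of repeat 1 (adjusted p = 0.0537).

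The regulator called higher was hcf-1, a nuclear cofactor known to restrain DAF-16, at 227 and 272 CPM in cav-1 RNAi worms and 79.0 and 196 CPM in daf-2 RNAi worms (0.99, SE 0.28, adjusted p = 0.0480). It was not called without the daf-2 RNAi library of repeat 1 (0.74, adjusted p = 0.342), that of repeat 2 (1.05, adjusted p = 0.115) or the cav-1 RNAi library of repeat 1 (0.45, adjusted p = 0.217), nor with a pseudocount of 4, no filter, a minimum mean of 5 CPM or the length trend removed (adjusted p between 0.058 and 0.0741). cst-1, a kinase of the MST family, had 3.62 and 5.35 CPM in daf-2 RNAi worms and 7.31 and 7.18 CPM in empty vector worms (-0.60, adjusted p = 0.213). sem-5, a GRB2-like adaptor, had 67.6 and 40.1 CPM in cav-1 RNAi worms and 36.9 and 30.4 CPM in empty vector worms (0.62, adjusted p = 0.977). hcf-1 was next in that comparison (0.55, adjusted p = 0.977).

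The authors' deposited table calls 2 members under daf-2 RNAi against empty vector at an adjusted p under 0.05, daf-2 (log2 fold change -1.32, adjusted p = 0.00186) and ist-1 (0.85, adjusted p = 0.0442), where it calls 9.55% of genes with an adjusted p. Under cav-1 RNAi against empty vector the authors' deposited table calls 0 of 10 members and 0.57% of genes. Between cav-1 RNAi and daf-2 RNAi the authors' deposited table calls 4 members higher, namely daf-2 (1.57, adjusted p = 8.53e-05), daf-18 (1.103, adjusted p = 0.000704), aap-1 (0.94, adjusted p = 0.00389) and age-1 (0.61, adjusted p = 0.0465), where it calls 16.8% of genes higher and 25.9% in either direction. Whether the repeat entered the fit behind the authors' deposited table is not given in the sources used here.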

How the data were processed

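The authors deposited one table of whole-number counts of reads for each gene, which its header calls raw, with their own log2 fold changes and adjusted p-values. The submitters' processing notes name DESeq2 1.10.1, TopHat2 2.0.13, cutadapt 1.7.1, bcl2fastq 2.15.0.4 and Cufflinks 2.2.1, and build WBcel235. The counting tool, annotation release and strand setting were not given in the sources used here. In the deposited counts 494 genes (1.06%) hold no value, so these columns did not pass a format check as counts. A count model was therefore not run, and limma was used in its place. Coordinates and lengths come from the Ensembl annotation of the same build.

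Genes with at least 0.348 CPM (10 counts in the median library) in 2 or more libraries and a total of 15 or more counts were tested, 14378 genes with 99.96% of the counts. CPM was scaled by TMM factors (0.922 to 1.04), and log2(CPM + 1) was fitted by limma-trend (R 4.3.3, limma 3.58.1) over all 6 libraries, 2-sided, with the repeat as a block, p-values adjusted by Benjamini-Hochberg per contrast, called at 0.05. A fold change is on the log2(CPM + 1) scale and understates low genes. Residual degrees of freedom were 2, and the prior added 8.69. The series' design text gives the pairing, and deviations of same-numbered libraries correlated at 0.891 (daf-2 RNAi with empty vector), 0.807 (cav-1 RNAi with empty vector) and 0.812 (cav-1 RNAi with daf-2 RNAi). The script was also run on simulated counts with the same spread for every gene, so that run cannot give error rates for these libraries.

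The members and lists were chosen with earlier results of these data known. The text names all members, cav-1, the 3 genes nearest to daf-2 in log2(CPM + 1) profile (each centred on its mean, among genes averaging at least 5 CPM), and, of the 30 regulators, those called in a treatment contrast and the 2 largest differences in each. Alternatives covered the block, scaling, pseudocount (0.25 and 4), filter, transcript length, voom weights and each library left out.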

Additional observations from a re-analysis of the deposited data

How the results depend on the processing

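Counting error was largest for ist-1 and sgk-1, the members with the fewest counts, and each test had 2 repeats and 2 residual degrees of freedom. With 1 library left out, the lone library of a group is assumed to vary like the others. The calls depended on the replicate block: with no replicate block 0 genes were called in each treatment contrast, 0 members in daf-2 RNAi against empty vector and in cav-1 RNAi against daf-2 RNAi, and daf-2 stayed at -1.63 under daf-2 RNAi (adjusted p = 0.991).

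In daf-2 RNAi against empty vector 0 members were called with a pseudocount of 4, no filter or a minimum mean of 5 CPM, 2 with total-count scaling, and 0 to 2 with a library left out. daf-2 had -1.54 with a pseudocount of 4 (adjusted p = 0.0557), -1.63 with no filter (adjusted p = 0.0773), -1.54 with a minimum mean of 5 CPM (adjusted p = 0.0928) and -1.50 after removal of the length trend (adjusted p = 0.0517), and -2.50 to -0.53 with a library left out. In cav-1 RNAi against daf-2 RNAi 0 to 4 members were called with a library left out. In repeat 2 against repeat 1 the 8 called members became 4 after removal of the length trend and 6 to 9 with a library left out.

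Signs that turned belonged, but for daf-2 between repeats, to differences that were not called, and the cause was not tested. Under daf-2 RNAi akt-1 had 0.088 with total-count scaling, 0.086 with a minimum mean of 5 CPM, 0.052 after removal of the length trend, 0.0091 with voom weights and -0.18 to 0.41 with a library left out. Under cav-1 RNAi akt-2 had -0.0014 with a minimum mean of 5 CPM and -0.056 after removal of the length trend. With a library left out the ranges under cav-1 RNAi were -0.23 to 0.85 for daf-2, -0.032 to 0.20 for ist-1, -0.10 to 0.28 for age-1, -0.041 to 0.63 for aap-1, -0.12 to 0.31 for pdk-1, -0.044 to 0.73 for akt-1, -0.16 to 0.19 for akt-2 and -0.29 to 0.47 for sgk-1. Between cav-1 RNAi and daf-2 RNAi daf-16 had -0.058 with a minimum mean of 5 CPM, -0.16 after removal of the length trend and -0.24 to 0.17 with a library left out, pdk-1 -0.85 to 0.022 and akt-1 -0.078 to 0.74. Between repeats daf-2 had -0.27 after removal of the length trend, and aap-1 had 0.031 with size factors and -0.14 to 0.33 with a library left out.

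Over all genes, the 1070 calls in daf-2 RNAi against empty vector became 471 with a minimum mean of 5 CPM and 665 to 2200 with a library left out. The 1 call in cav-1 RNAi against empty vector became 20 with size factors, 64 with TMM over all genes of the table (an alternative chosen after seeing the data), 2 with a pseudocount of 0.25 or voom weights, and 0 to 394 with a library left out. The 1526 calls in cav-1 RNAi against daf-2 RNAi became 3142 with size factors, 3236 with TMM over all genes, 898 with a minimum mean of 5 CPM and 61 to 4203 with a library left out.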
